A study of Mus musculus with 6 samples.

Results

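The 37 genes described here belong to the Wnt signalling pathway: 6 Wnt ligands, 8 receptors and co-receptors, 5 genes of the R-spondin module, 9 intracellular transducers and inhibitors, 3 nuclear factors, 2 secreted modulators, 2 genes that process or carry the ligands, and 2 target genes. They were chosen by symbol, not by level, and each symbol matched 1 row of the 54532 genes listed for each library. Liver RNA had been sequenced from 6 adult male C57BL/6J mice of about 8 weeks, in 2 groups of 3. In the paternal saline group, here the saline group, the fathers had received saline, and in the paternal nicotine group, here the nicotine group, the fathers had received nicotine. For the offspring the labels list no treatment of their own, no transgene and no altered allele. The number of sires and litters is not stated, so every p-value here describes the spread among these particular animals, which may be related within a group. The comparison asks whether the transcripts of these genes differed between the livers of nicotine-sired and saline-sired offspring.

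Wnt proteins are secreted, lipid-modified ligands that bind frizzled receptors together with the co-receptors LRP5 and LRP6. Binding stops a cytoplasmic destruction complex built on AXIN and APC from marking beta-catenin for degradation, and beta-catenin then joins TCF/LEF factors on target genes. In mouse liver the ligands and R-spondin 3 come largely from endothelial cells near the central vein, where the pathway keeps pericentral hepatocyte genes active and periportal genes low.

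Values are RPKM, that is reads scaled by gene length and by library size. The totals behind them ranged from 61837267 to 70089315 reads per library, and every value corresponded to a whole number of reads within 0.01, for 1200 genes (among them Fzd8, Apc, Dvl2 and Tcf7l2) only after the gene length was searched for. Genes whose mean over all 6 libraries reached 1 RPKM entered the limma test on log2(RPKM + 1), a scale that understates the change of low genes, and p-values were adjusted over all 8773 tested genes by the Benjamini-Hochberg method. In bulk liver RNA, fewer cells of a type and less RNA per cell cannot be told apart. The 8 hepatocyte markers were all above 1 RPKM on average. They summed to between 28730 and 36060 RPKM in the saline group and between 16440 and 17050 RPKM in the nicotine group. Most of that sum was Alb alone, at 23800 RPKM on average in the saline group and 11790 RPKM in the nicotine group. Alb and Cyp3a11 were lower past the threshold, 6 of the 8 markers did not pass, and 3 of the 8 had a positive log2 fold change. Of all tested genes, 341 (3.89%) were higher and 473 (5.39%) lower in the nicotine group.

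None of the 37 Wnt genes passed the test. Of the 37, 23 reached a mean of 1 RPKM and were tested, and 0 of 23 had a limma adjusted p under 0.05, where 9.28% of all tested genes did. At an unadjusted limma p under 0.05 there were 4 of 23 members (17.4%), namely Fzd4, Fzd1, Dkk3 and Gsk3b, against 26.3% of all tested genes. The groups did not overlap for 3 of 23 members, Fzd4 and Fzd1 lower and Dkk3 higher in the nicotine group. Of all tested genes, 33.6% did not overlap, 19.2% with the nicotine group lower and 14.4% with it higher. Limma voom, run on the reads behind the values, also called 0 of the 23 members and 8.65% of all tested genes.

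The tested members moved in both directions, 11 with a positive and 12 with a negative log2 fold change (paternal nicotine minus paternal saline). Their median log2 fold change was -0.02, the same as the -0.02 of all tested genes, and their median absolute log2 fold change was 0.177 against 0.193. The standard errors of the log2 fold changes ran from 0.08 for Lgr4 to 0.33 for Ccnd1. The 95% intervals therefore bound some members closely and others loosely. The intervals went no further than -0.27 and 0.15 for Lgr4, and from -1.34 to 0.16 for Fzd8. Wnt4 and Tbx3 reached the mean of 1 RPKM only through the paternal nicotine group, since their paternal saline means were 0.895 and 0.647 RPKM, so the test of these genes started from a group chosen to be high.

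**Figure D1:**
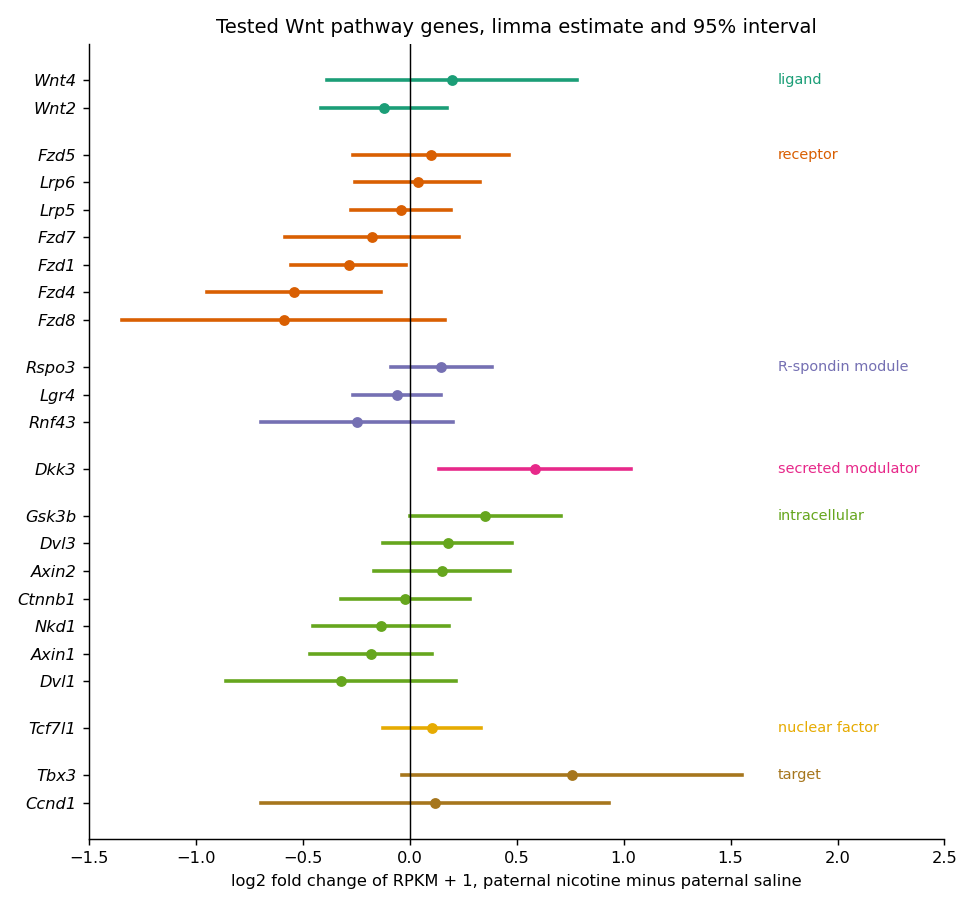
Log2 fold change of RPKM + 1 (horizontal axis, paternal nicotine minus paternal saline) for the 23 tested Wnt pathway genes, grouped by role, as limma estimates (points) with 95% intervals (lines). The intervals of 4 genes exclude 0, those of Fzd4, Fzd1, Dkk3 and Gsk3b, and none of the 23 genes passed after adjustment over 8773 genes.

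Promoters of the members show the regulatory sequence in front of these genes. The RefSeq table of GRCm38.p6 holds 31 promoters of 22 members, each 250 bases before to 50 bases after an annotated start, and those of the other 15 members were not used here. A TCF/LEF word (CTTTGAA, the variant CTTTGAT, the variant CTTTGTA or the variant CTTTGTT, on either strand) was present in 5 of the 31 promoters (16.1%) and in 16.9% of all 32851 promoters of that length. After that result was seen, the GC box GGGCGG was searched on both strands. It was present in 22 of the 31 promoters (71%) and in 35.7% of all promoters. The sequences printed are those of 3 of the 4 members with an unadjusted p under 0.05, Fzd4, Fzd1 and Gsk3b, and of Fzd7, whose promoter was the only one of a tested member with a TCF/LEF word. Capitals mark GC boxes (GGGCGG or its reverse complement CCGCCC, which overlap or adjoin in places) and, in Fzd7, the TCF/LEF word AACAAAG.
Fzd4 promoter: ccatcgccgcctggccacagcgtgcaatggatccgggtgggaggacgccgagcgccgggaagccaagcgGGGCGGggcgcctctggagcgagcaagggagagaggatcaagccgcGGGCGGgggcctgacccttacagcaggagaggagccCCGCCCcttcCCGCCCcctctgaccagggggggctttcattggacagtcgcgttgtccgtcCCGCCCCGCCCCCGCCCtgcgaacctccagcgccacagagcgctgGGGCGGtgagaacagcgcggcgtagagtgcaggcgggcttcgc
Fzd1 promoter: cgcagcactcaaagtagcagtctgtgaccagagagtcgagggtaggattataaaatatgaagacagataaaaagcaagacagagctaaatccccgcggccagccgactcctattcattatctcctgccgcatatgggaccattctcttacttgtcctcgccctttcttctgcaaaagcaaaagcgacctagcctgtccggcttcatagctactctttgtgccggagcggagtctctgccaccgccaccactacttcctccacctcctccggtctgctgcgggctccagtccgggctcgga
Gsk3b promoter: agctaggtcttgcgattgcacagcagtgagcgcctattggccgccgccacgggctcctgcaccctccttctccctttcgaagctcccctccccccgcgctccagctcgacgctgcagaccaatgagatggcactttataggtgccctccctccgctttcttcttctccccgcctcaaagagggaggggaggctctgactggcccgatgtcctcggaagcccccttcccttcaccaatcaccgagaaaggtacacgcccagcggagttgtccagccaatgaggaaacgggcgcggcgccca
Fzd7 promoter: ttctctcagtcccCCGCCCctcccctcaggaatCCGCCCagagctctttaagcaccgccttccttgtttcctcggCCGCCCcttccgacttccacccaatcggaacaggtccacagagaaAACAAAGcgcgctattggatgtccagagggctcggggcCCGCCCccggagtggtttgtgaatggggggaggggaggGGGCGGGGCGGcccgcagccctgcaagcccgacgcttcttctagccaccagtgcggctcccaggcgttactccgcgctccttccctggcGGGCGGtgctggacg
The Fzd4 window (chr7:89404116-89404415, plus strand) held 8 GC boxes and the Fzd7 window (chr1:59481897-59482196, plus strand) 7. The Fzd7 window also held the TCF/LEF word, which began 130 bases before the start. The Fzd1 window (chr5:4758167-4758466, minus strand) and the Gsk3b window (chr16:38088751-38089050, plus strand) held neither. The share of G and C was 72.7% for Fzd4, 66.7% for Fzd7, 63.0% for Gsk3b and 54.0% for Fzd1. A match here is a match of letters and no measurement of binding, and a window without one says only that these letters are not in it.

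Of the 6 ligands, only Wnt2 and Wnt4 reached the tested range. Wnt2 (chr6:17988940-18030585, minus strand), a canonical ligand made by liver endothelial cells, was at 3.95, 2.94 and 3.87 RPKM in saline replicates 1 to 3 and at 3.05, 3.02 and 3.53 RPKM in nicotine replicates 1 to 3. The lowest library was paternal saline 2, and the groups overlapped. The log2 fold change of Wnt2 was -0.12 (SE 0.12, 95% interval -0.42 to 0.17, limma adjusted p = 0.572).

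Wnt4 (chr4:137277489-137299726, plus strand), a ligand known for its part in kidney and gonad development, was at 0.991, 0.862 and 0.832 RPKM in the saline group and at 0.756, 0.837 and 2.17 RPKM in the nicotine group. These values rest on 257, 242 and 224 reads and on 197, 218 and 638 reads. Only paternal nicotine 3 stood above the other libraries, and paternal nicotine 1 was the lowest of the 6. The log2 fold change was 0.20 (SE 0.24, 95% interval -0.39 to 0.78, limma adjusted p = 0.645), and without paternal nicotine 3 it was -0.08. In that library the 10 T and NK cell markers had a summed level of 29.0 RPKM, where the other 5 libraries had 3.15 to 7.58 RPKM, with 3 of the 10 markers tested and 0 called, and Ncr1 listed at 0 in paternal nicotine 2 alone. The 12 Kupffer cell and macrophage markers, all tested and 0 called, summed to 1376 RPKM there against 435 to 861 RPKM elsewhere. Their part in the Wnt4 value was not tested.

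The other 4 ligands lay under 1 RPKM on average. Wnt5b was at 0.852 ± 0.108 RPKM (SD, n = 3) in the saline group and 0.990 ± 0.393 RPKM in the nicotine group, on 335 to 874 reads per library. Wnt9b, which like Wnt2 is made by endothelial cells around the central vein, was at 0.790 ± 0.173 and 0.705 ± 0.124 RPKM, on 158 to 298 reads. The groups overlapped for both genes. Wnt5a, the prototype of the non-canonical ligands, was at 0.0776, 0.106 and 0.109 RPKM in the saline group and at 0.149, 0.151 and 0.119 RPKM in the nicotine group, that is 66, 98 and 96 reads against 127, 129 and 115. All 3 paternal nicotine libraries were above all 3 paternal saline libraries, and the fit without a filter on low values gave a limma adjusted p of 0.603. Wnt11 had 0, 4 and 0 reads in the saline group and 0, 3 and 13 reads in the nicotine group. Only paternal nicotine 3 was above 4 reads, and a difference in Wnt11 was not detectable at this depth, since a count of 0 allows up to 3 reads from counting error alone.

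To compare genes with each other, the reads were divided by the merged exon length of each gene. For most genes the length behind the deposited values adds up all transcripts. This merged-exon level assumes that each read was counted once per gene, which the sources used here do not state. On that scale Wnt2 was the highest ligand in the saline group at 3.59 ± 0.566 (SD, n = 3), followed by Wnt5b at 2.89 ± 0.367, Wnt4 at 0.895 and Wnt9b at 0.790, Wnt5a at 0.172 and Wnt11 at 0.0048. The ranges of Wnt2 and Wnt5b overlapped, although Wnt2 was above Wnt5b within each of the 3 saline libraries. Wnt4 was below Wnt9b in paternal saline 2 and above it in paternal saline 1 and 3. In paternal nicotine the merged-exon levels of Wnt2 and Wnt5b were 3.20 and 3.36. The summed merged-exon level of the 6 ligands was 8.34 ± 0.754 in the saline group and 8.78 ± 2.38 in the nicotine group, and these sums overlapped.

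The frizzled receptors held the members with the lowest unadjusted p-values among the receptors. Fzd4 (chr7:89404355-89413134, plus strand), a receptor for several Wnts and for norrin that is strongly expressed in endothelial cells, was at 5.55, 3.74 and 6.09 RPKM in the saline group. In paternal nicotine it was at 3.42, 2.97 and 3.08 RPKM. All 3 paternal nicotine libraries lay below the lowest paternal saline library, which was paternal saline 2. The log2 fold change of Fzd4 was -0.54 (SE 0.17, 95% interval -0.95 to -0.13, limma adjusted p = 0.105), and it was the lowest adjusted p of the 37 members. Over the 6 fits that left out 1 library, the adjusted p ranged from 0.0242 without paternal saline 2, where the log2 fold change was -0.72, to 0.26. Of the 16 sinusoidal endothelial markers, all tested, 0 passed and 8 had a positive log2 fold change. Their summed level was 107.5 to 148.8 RPKM in the saline group and 120.5 to 145.7 RPKM in the nicotine group. The 8 vein endothelial markers, 3 tested and 0 called, summed to 12.1 to 14.74 RPKM in the saline group. In the nicotine group these vein markers summed to 14.99 to 18.34 RPKM. The part of either marker set in the Fzd4 value was not tested.

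Fzd1 (chr5:4753839-4758035, minus strand), a receptor of the beta-catenin branch, was at 6.13, 6.61 and 7.77 RPKM in the saline group and at 5.13, 5.22 and 5.89 RPKM in the nicotine group. The groups did not overlap, with paternal nicotine 3 close to paternal saline 1. For Fzd1 the log2 fold change was -0.29 (SE 0.11, 95% interval -0.55 to -0.02, limma adjusted p = 0.169). Fzd8 was at 7.99, 3.82 and 8.99 RPKM in the saline group and at 4.96, 3.14 and 4.14 RPKM in the nicotine group. Paternal saline 2 stood among the paternal nicotine libraries, so the groups overlapped, and the log2 fold change of -0.59 had a wide error (SE 0.31, limma adjusted p = 0.29). Paternal saline 2 was also the lowest paternal saline library for Fzd4, Fzd5, Fzd6 and Fzd7.

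Fzd7 was at 6.73 ± 1.45 RPKM in the saline group and 5.79 ± 0.753 RPKM in the nicotine group (SD, n = 3). Fzd5 was at 1.24 ± 0.357 and 1.38 ± 0.216 RPKM. Fzd6, under the tested range, was at 0.406 ± 0.131 and 0.309 ± 0.0183 RPKM, on 185 to 350 reads. All of these overlapped between the groups. Fzd5 shares 1233 exonic bases with Gm38058 on the opposite strand, and the sources used here do not state whether the counting used strand.

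The co-receptors were at nearly the same level in both groups. Lrp5 was at 9.28, 10.8 and 10.3 RPKM in the saline group and at 9.40, 9.38 and 10.7 RPKM in the nicotine group (log2 fold change -0.04, SE 0.10, 95% interval -0.27 to 0.19, limma adjusted p = 0.828). Lrp6 was at 3.52, 4.29 and 4.85 RPKM and at 4.56, 4.44 and 3.98 RPKM (log2 fold change 0.04, SE 0.12, 95% interval -0.26 to 0.33, limma adjusted p = 0.878). The groups overlapped fully for both co-receptors. By merged-exon level in the saline group, Lrp5 at 20.4 ± 1.56 was 3.77-fold above Lrp6 on average over the 3 libraries, and 3.55-fold above it in the nicotine group.

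**Figure D2:**
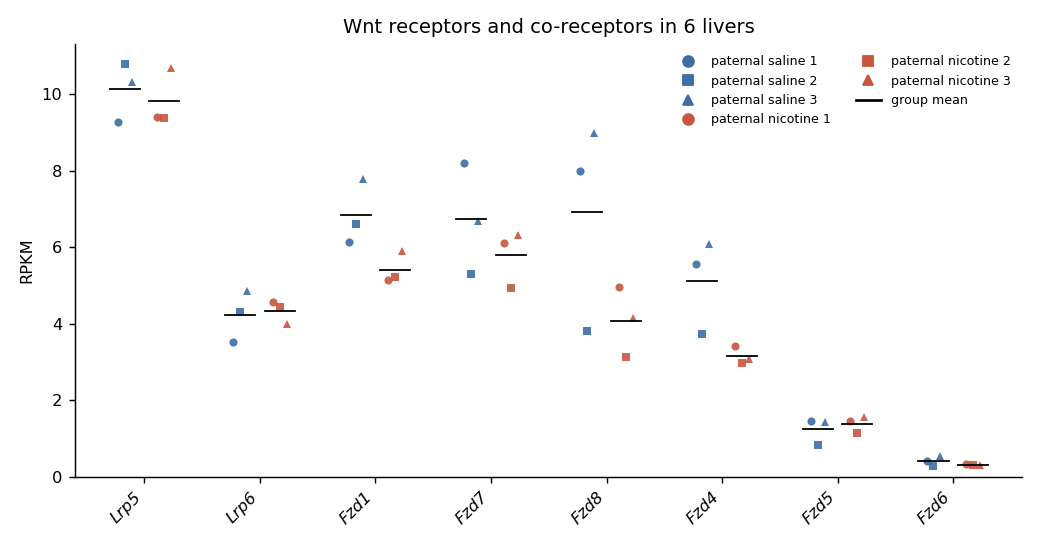
Deposited RPKM (vertical axis) of the 2 co-receptors and the 6 frizzled receptors in each of the 6 livers, with marker shape giving the replicate number and bars the group mean (n = 3). Levels are to be compared within a gene: the 3 paternal nicotine libraries of Fzd4 sit between 2.97 and 3.42 RPKM, all under the paternal saline libraries, and those of Fzd8 overlap with paternal saline 2 at 3.82 RPKM.

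By merged-exon level in the saline group, 4 frizzled receptors had similar levels: Fzd8 at 7.77 ± 3.07, Fzd1 at 6.84 ± 0.844, Fzd7 at 6.73 ± 1.45 and Fzd4 at 5.13 ± 1.24 (SD, n = 3). Neighbours in that order overlapped in range, although Fzd7 was above Fzd4 within each of the 3 saline libraries. Fzd5 at 1.76 ± 0.507 and Fzd6 at 0.865 ± 0.28 were lower. Fzd8 has 1 annotated transcript of 5974 bases, but its reads fitted a length of 6692 bases. Its merged-exon level, and the frizzled sums and shares, may therefore be shifted. By deposited RPKM Fzd8 averaged 6.93 in the saline group. The summed level of the 6 receptors was 31.8, 21.7 and 33.8 in the saline group and 23.0, 18.9 and 22.8 in the nicotine group. Only paternal saline 2 lay in the range of paternal nicotine, and the sums overlapped.

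Shares and ratios within a library do not depend on the library's total. The gene pairs for them were picked with the members' values in view, so they are descriptions without a test: of 25 shares and ratios computed, 8 did not overlap between the groups and 17 did. Among the receptors, Fzd4 made up 17.5%, 17.2% and 18.0% of the summed frizzled level in the saline group and 14.9%, 15.7% and 13.5% in the nicotine group. Fzd5 made up 6.52%, 5.41% and 6.00% and then 8.96%, 8.57% and 9.70%. The share of Fzd7 was 23.4 ± 3.16% and 26.8 ± 0.877%, and the ratio of Fzd4 to Fzd7 was 0.764 ± 0.128 and 0.550 ± 0.0589 (SD, n = 3). These values of Fzd4, Fzd5 and Fzd7 lay apart between the groups, while the shares of Fzd1, Fzd6 and Fzd8 overlapped.

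The R-spondin module sets how many receptors stay on the cell surface: R-spondins bind LGR receptors and draw the ubiquitin ligases ZNRF3 and RNF43 away from frizzled. Rspo3, the main R-spondin of mouse liver, was at 1.20, 1.28 and 1.55 RPKM in the saline group and at 1.54, 1.47 and 1.76 RPKM in the nicotine group. Only paternal saline 3 overlapped with the other group. Rspo3 had a log2 fold change of 0.15 (SE 0.10, 95% interval -0.09 to 0.38, limma adjusted p = 0.392). The ratio of the merged-exon levels of Wnt2 and Rspo3 was 2.10 ± 0.403 in the saline group and 1.57 ± 0.0311 in the nicotine group, and it did not overlap.

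Lgr4 was at 4.57 ± 0.322 and 4.34 ± 0.189 RPKM (log2 fold change -0.06, SE 0.08, limma adjusted p = 0.695). Lgr5, a receptor whose gene is itself a Wnt target in pericentral hepatocytes, was at 0.232, 0.267 and 0.441 RPKM in the saline group and at 0.437, 0.537 and 0.469 RPKM in the nicotine group, on 276 to 642 reads. Paternal saline 3 was just above paternal nicotine 1, and the other paternal saline libraries lay below all paternal nicotine libraries. Without a filter on low values the limma adjusted p was 0.426, the lowest of the 14 members under 1 RPKM. Voom on the reads, which does not compress low genes, gave a log2 fold change of 0.67 with an adjusted p of 0.294. The ratio of Lgr4 to Lgr5 by merged-exon level was 16.1 ± 4.05 in the saline group and 9.44 ± 1.25 in the nicotine group, without overlap.

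Rnf43 was at 1.24, 1.5 and 2.19 RPKM in the saline group and at 1.13, 0.894 and 1.65 RPKM in the nicotine group, and the groups overlapped (limma adjusted p = 0.448). Znrf3 had 149, 177 and 4 reads in the saline group and 180, 107 and 295 reads in the nicotine group. Paternal saline 3 stood far below the other 5 libraries for Znrf3, while it was the highest paternal saline library for Rnf43, Rspo3, Lgr4 and Lgr5. The fit without a filter gave a limma adjusted p of 0.651 for Znrf3.

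Among the intracellular genes, beta-catenin itself did not separate the groups. Ctnnb1 (chr9:120929216-120960507, plus strand) was at 11, 11.4 and 9.03 RPKM in the saline group and at 9.52, 11.6 and 9.79 RPKM in the nicotine group. The highest value was in the nicotine group and the lowest in the saline group. The log2 fold change was -0.02 (SE 0.12, 95% interval -0.32 to 0.28, limma adjusted p = 0.932), and it was 0.01 after rescaling by the median ratio. By merged-exon level Ctnnb1 had the highest level of the 37 members, 43.5 ± 5.30 in the saline group and 42.8 in the nicotine group.

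Gsk3b (chr16:38089001-38246084, plus strand), a kinase that marks beta-catenin for degradation and also acts in glycogen metabolism, was at 2.05, 2.5 and 2.95 RPKM in the saline group. In paternal nicotine it was at 3.91, 3.67 and 2.83 RPKM. Paternal nicotine 3 fell below paternal saline 3, and the other 2 paternal nicotine libraries were above all paternal saline libraries. This gave Gsk3b a log2 fold change of 0.35 (SE 0.14, 95% interval 0.0025 to 0.71, limma adjusted p = 0.188). Axin1, a scaffold of the same complex with a fold change of the opposite sign, was at 4.16 ± 0.432 and 3.56 ± 0.47 RPKM (log2 fold change -0.18, SE 0.12, limma adjusted p = 0.389).

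Axin2, a scaffold whose gene is a widely used Wnt target, was at 1.40, 1.05 and 1.48 RPKM in the saline group and at 1.36, 1.95 and 1.39 RPKM in the nicotine group. Paternal nicotine 2 was the highest library, and the other 2 paternal nicotine libraries lay within the paternal saline range (log2 fold change 0.15, SE 0.13, 95% interval -0.17 to 0.47, limma adjusted p = 0.516). Nkd1, an inhibitor of dishevelled that is also a Wnt target, was at 2.13 ± 0.484 and 1.83 ± 0.131 RPKM (limma adjusted p = 0.555). Apc, the other scaffold of the complex, had 205, 1371 and 1184 reads in the saline group and 1000, 403 and 201 reads in the nicotine group. Its values varied more within each group than between the groups, from 0.0969 to 0.599 RPKM in the saline group and from 0.0838 to 0.471 RPKM in the nicotine group.

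The 3 dishevelled genes, which relay the signal from frizzled to the complex, pointed in different directions and none passed. Dvl1 was at 2.01, 2.63 and 3.90 RPKM in the saline group and at 2.70, 1.83 and 1.61 RPKM in the nicotine group (log2 fold change -0.32, SE 0.22, limma adjusted p = 0.412). Dvl3 was at 2.20, 3.09 and 2.89 RPKM and at 3.22, 3.49 and 2.88 RPKM (log2 fold change 0.18, SE 0.12, limma adjusted p = 0.422). Both overlapped between the groups. Within a library, Dvl3 made up 25.9%, 27.5% and 21.1% of the summed dishevelled level in the saline group and 28.7%, 36.8% and 32.6% in the nicotine group. That share did not overlap, nor did the ratio of Dvl1 to Dvl3, which was 2.42 ± 0.634 and 1.49 ± 0.401. For the ratio, paternal saline 2 at 1.98 lay just above paternal nicotine 1 at 1.95. The share and the ratio use the same genes and are not separate observations. Dvl2, at 0.862 and 0.909 RPKM, shares 1151 exonic bases with the abundant Acadvl (77.5 to 87.1 RPKM) on the opposite strand, so reads of the latter may be counted in it.

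**Figure D3:**
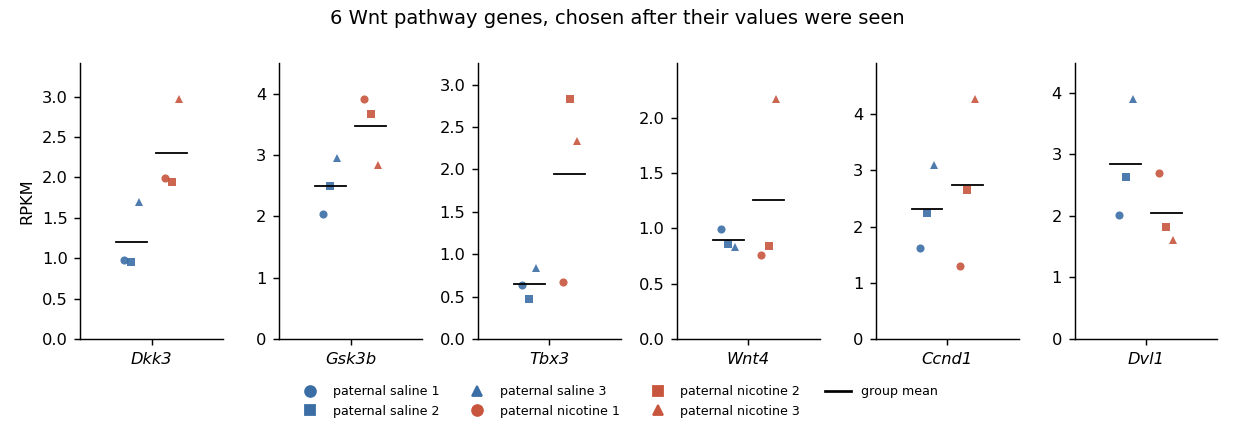
Deposited RPKM (vertical axes, each from 0) of 6 genes chosen after their values were seen, with marker shape giving the replicate number and bars the group mean (n = 3). Dkk3 lies higher in all 3 paternal nicotine libraries, and Tbx3, Wnt4, Gsk3b, Ccnd1 and Dvl1 overlap between the groups. For Tbx3 and Gsk3b 2 of 3 paternal nicotine libraries lie above all paternal saline libraries, and for Wnt4 and Ccnd1 1 of 3.

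The nuclear factors TCF7L1, TCF7L2 and LEF1 bind DNA and carry beta-catenin to its targets. Tcf7l1 was at 1.76, 1.96 and 1.87 RPKM in the saline group and at 2.29, 1.80 and 2.16 RPKM in the nicotine group (log2 fold change 0.10, SE 0.09, 95% interval -0.12 to 0.33, limma adjusted p = 0.53). Tcf7l2, with 22 annotated transcripts, was at 0.156 ± 0.0075 and 0.178 ± 0.0468 RPKM, on 391 to 758 reads. By merged-exon level in the saline group, Tcf7l1 at 3.15 ± 0.173 was above Tcf7l2 at 0.858 ± 0.041. Lef1 had 9, 23 and 24 reads in the saline group and 24, 10 and 12 reads in the nicotine group, so a difference was not detectable at this depth. All 3 factors overlapped between the groups.

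Of the secreted modulators, Dkk3 had the second lowest adjusted p of the 37 members. Dkk3 (chr7:112116017-112159057, minus strand), a divergent member of the Dickkopf family, was at 0.973, 0.948 and 1.69 RPKM in the saline group and at 2.0, 1.94 and 2.97 RPKM in the nicotine group. These values rest on 202, 213 and 365 reads and on 417, 404 and 699 reads. All 3 paternal nicotine libraries were above all 3 paternal saline libraries, with replicate 3 the highest in each group. Dkk3 had a log2 fold change of 0.59 (SE 0.18, 95% interval 0.14 to 1.03, limma adjusted p = 0.108), and voom on the reads gave 0.97 with an adjusted p of 0.106. Over the fits that left out 1 library the limma adjusted p ranged from 0.0823 to 0.253. The 16 stellate cell and myofibroblast markers summed to 63.9 to 72.2 RPKM in the saline group and 62.5 to 92.9 RPKM in the nicotine group, with 12 tested and 0 called. Their part in the Dkk3 value was not tested.

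Sfrp1, a decoy that binds Wnts outside the cell, was at 0.340, 0.253 and 0.751 RPKM in the saline group and at 0.376, 0.486 and 0.463 RPKM in the nicotine group, on 74 to 211 reads. The paternal nicotine libraries lay between the extremes of paternal saline. Porcn, the enzyme that attaches the lipid to Wnts, was at 0.338 ± 0.129 and 0.365 ± 0.0392 RPKM and overlapped. Wls, the carrier that takes Wnts to the cell surface, had 269, 226 and 334 reads in the saline group and 324, 342 and 423 reads in the nicotine group. In RPKM the groups did not overlap, at 0.259, 0.201 and 0.309 RPKM against 0.310, 0.328 and 0.359 RPKM, although paternal saline 3 and paternal nicotine 1 were nearly equal. The limma adjusted p of Wls without a filter was 0.60.

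The target genes Tbx3 and Ccnd1 varied widely within a group. Tbx3 (chr5:119670669-119684724, plus strand), a T-box factor that responds to beta-catenin in mouse liver, was at 0.638, 0.468 and 0.833 RPKM in the saline group and at 0.669, 2.83 and 2.34 RPKM in the nicotine group. Paternal nicotine 1 lay within the paternal saline range, while paternal nicotine 2 and 3 had 3304 and 3080 reads, above all other libraries. Tbx3 had a log2 fold change of 0.76 (SE 0.32, 95% interval -0.04 to 1.55, limma adjusted p = 0.209). Without paternal nicotine 1 it was 1.12, with a limma adjusted p of 0.0307. That fit left out the only paternal nicotine library within the saline range, so it is no separate support. Over all fits that left out 1 library the limma adjusted p reached up to 0.435. The 12 neutrophil markers, 3 tested and 1 called, summed to 26.8, 86.8 and 60.2 RPKM in the paternal nicotine libraries and to 6.02 to 7.19 RPKM in the saline group. Among them S100a8 was higher past the threshold, and Ly6g was listed at 0 in all paternal saline libraries. Their part in the Tbx3 value was not tested. Tbx3 shares 115 exonic bases with Tbx3os1 on the opposite strand, which was at 0.486 to 0.493 RPKM in the nicotine group and 0.539 to 0.799 RPKM in the saline group.

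Ccnd1, which encodes cyclin D1 and is a Wnt target in many tissues, was at 1.62, 2.24 and 3.09 RPKM in the saline group and at 1.30, 2.66 and 4.27 RPKM in the nicotine group. Both the lowest and the highest library were in the nicotine group (log2 fold change 0.12, SE 0.33, 95% interval -0.69 to 0.93, limma adjusted p = 0.852). The highest was paternal nicotine 3, also the highest for Wnt4, and without it the log2 fold change was -0.17. Ccnd1 shares 1100 exonic bases with LTO1 on the opposite strand, which was at 0.787 to 1.30 RPKM.

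Altogether 14 members lay under 1 RPKM, and 11 of these had at least 66 reads in every library, so their values rest on reads and not on the floor. The exceptions were Wnt11, Lef1 and Znrf3. In the fit without a filter 0 of the 14 passed (limma), 0 had an unadjusted p under 0.05, and voom called 0 with 1, Lgr5, at an unadjusted p under 0.05. In that fit limma called 1.44% of the 25531 genes with a read and voom 2.8%, and 13.5% had an unadjusted limma p under 0.05. The groups did not overlap for Wnt5a and Wls, 2 of 14, against 11.9% of all genes with a mean under 1 RPKM.

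**Figure D4:**
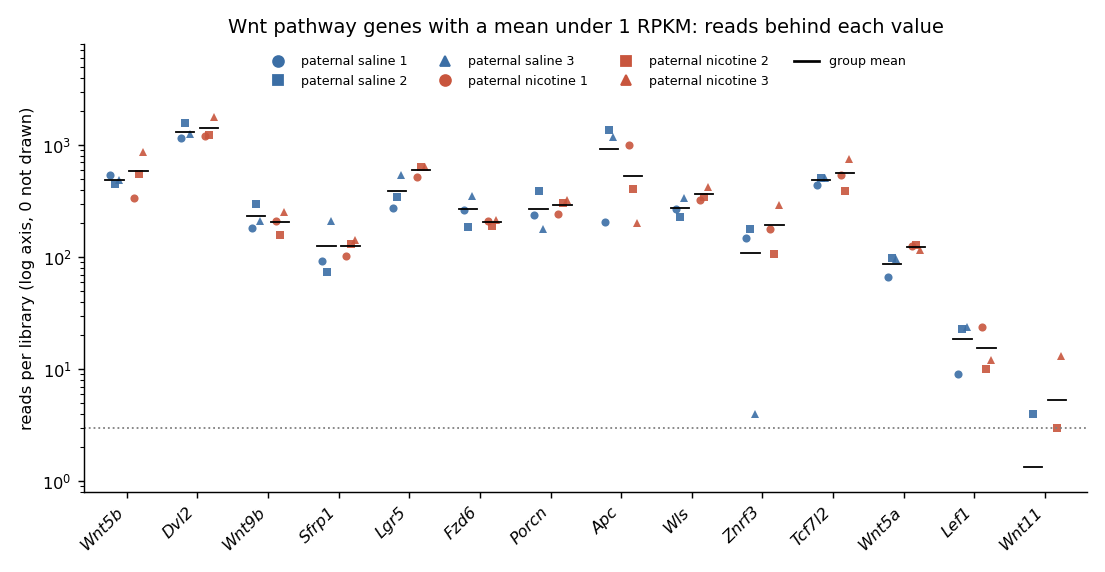
Reads per library (vertical axis, log scale) of the 14 Wnt pathway genes with a mean under 1 RPKM, ordered by mean RPKM, with marker shape giving the replicate number, bars the group mean and the dotted line the floor of 3 reads. Libraries with 0 reads, 3 of them for Wnt11, are not drawn, and paternal saline 3 stands at 4 reads for Znrf3 where the other libraries have 107 to 295.

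The remaining Wnt pathway genes were covered by 6 further lists, whose 95 genes found in the tables included 25 tested ones. Of these 25, 24 did not pass. Among the 25, 0 were higher and 1 was lower, where 3.89% of all tested genes were higher and 5.39% lower. The gene that fell was Aes, a short Groucho-family protein that modulates repression by TCF factors. Aes was at 44.3, 47.4 and 47.5 RPKM in the saline group and at 33.7, 34.1 and 37.5 RPKM in the nicotine group (log2 fold change -0.40, SE 0.08, limma adjusted p = 0.0348). The call was lost without a filter, with a filter of 0.1 RPKM and on leaving out any library other than paternal nicotine 3; without paternal nicotine 3, 4 genes were lower, namely Aes, Notum, Ctnnbip1 and Cxxc5. Notum, an enzyme that removes the lipid from Wnts, was at 6.39 ± 0.472 and 4.46 ± 0.535 RPKM without overlap (limma adjusted p = 0.0565). Sfrp5, a secreted decoy of the same family as Sfrp1 that lay under the tested range, was at 0.0681, 0.0944 and 0.0902 RPKM against 0.39, 0.356 and 0.496 RPKM, with the nicotine group higher in all 3 libraries. In the fit without a filter it passed (log2 fold change 0.38, SE 0.06, limma adjusted p = 0.0457), and it did not pass there on leaving out any library or by voom on the reads. Of 13 further Wnt ligands 0 were tested, and 8 of them were listed at 0 in all 6 libraries. Wnt2b was at 0.129, 0.307 and 0.279 RPKM in the saline group and lower in all nicotine libraries, at 0.094, 0.0592 and 0.0648 RPKM. Btrc was higher in all nicotine libraries, at 0.156 and 0.465 RPKM on average. Without a filter limma called neither (adjusted p = 0.261 and 0.184), and voom called Btrc (adjusted p = 0.0483). Other low genes of these lists lay apart in either direction, as did 11.9% of all genes with a mean under 1 RPKM.

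Genes known as outputs of the pathway in mouse liver were compared next to its members. Their lists were chosen with earlier results of these data known, so the counts are descriptions without a test of a list. Of 18 tested pericentral hepatocyte genes, 1 was higher, 2 were lower and 15 did not pass, where 3.89% of all tested genes were higher and 5.39% lower. Slc13a3, a dicarboxylate transporter, rose from 1.64 ± 0.223 to 4.69 ± 0.98 RPKM (limma adjusted p = 0.0125), a call that was lost without paternal saline 1 and without paternal nicotine 2. Aldh1a1, a retinaldehyde dehydrogenase, fell from 175 ± 46.9 to 92.1 ± 1.14 RPKM, and Rgn, a calcium-binding gluconolactonase, from 741 ± 59.4 to 558 ± 7.54 RPKM (limma adjusted p = 0.0396 and 0.0422). The count of lower genes was 1 after median-ratio scaling and without paternal saline 3. It was 0 after quantile normalization, without a filter, with a filter of 0.1 RPKM, and on leaving out paternal saline 1 or any of the paternal nicotine libraries.

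Glul, glutamine synthetase and the classic pericentral gene, was at 239, 261 and 265 RPKM in the saline group and at 293, 276 and 301 RPKM in the nicotine group. Its groups did not overlap, and it did not pass (limma adjusted p = 0.22). Oat was at 282 and 258 RPKM on average. Cyp2e1 ranged from 242 to 998 RPKM within the saline group and from 425 to 850 RPKM within the nicotine group. Cyp1a2 was at 182 ± 61.8 and 109 ± 18.3 RPKM (limma adjusted p = 0.189). Of 8 tested general Wnt targets, Sox9 rose from 1.98 ± 0.631 to 7.62 ± 1.91 RPKM (limma adjusted p = 0.0171), and 7 did not pass. Of the 8, 5 had a positive log2 fold change. Among the 7 was Notum, which is on this list too and was lower in all paternal nicotine libraries (limma adjusted p = 0.0565). The Sox9 call was lost without a filter and on leaving out paternal saline 1, paternal nicotine 1 or paternal nicotine 2. Under the tested range, Plaur, Fosl1, Myc and Mmp7 of that list were higher in all paternal nicotine libraries. Of all genes with a mean under 1 RPKM, 11.9% did not overlap between the groups. Plaur was at 0.180 and 1.01 RPKM on average and Fosl1 at 0.159 and 0.885 RPKM. Without a filter neither passed (limma adjusted p = 0.0505 and 0.0709), while voom called both (adjusted p = 0.0167 and 0.0437). Bmp4 and Ccnd2, also under that range, had negative log2 fold changes and overlapped. Sox9 is also 1 of the 8 cholangiocyte markers, of which 5 were tested and 2, Sox9 and Spp1, were higher, and which summed to 9.54 to 12.5 RPKM in the saline group and 21.5 to 21.8 RPKM in the nicotine group. Sox9 itself is in that sum and is 1 of the 2 calls, so neither is independent of its value. The part of the other cholangiocyte markers in the Sox9 value was not tested.

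The list of 15 periportal hepatocyte genes was likewise chosen with earlier results of these data known, so its count is a description. All 15 were tested: 8 fell, 0 rose and 7 did not pass, where 5.39% of all tested genes fell. After median-ratio scaling, after quantile normalization or with a filter of 5 RPKM, 1 rose. The 8 that fell were Gls2, Etnppl, Uroc1, Ass1, Cyp2f2, Hsd17b6, Hal and Hsd17b13. Gls2, a glutaminase, went from 31.4 ± 0.485 to 13.9 ± 1.16 RPKM (log2 fold change -1.12, limma adjusted p = 0.0032). Etnppl, which degrades phosphoethanolamine, went from 13.2 ± 1.68 to 2.40 ± 1.01 RPKM (log2 fold change -2.10, limma adjusted p = 0.0067). The count was 4 without paternal saline 1 and 5 without paternal saline 3, without paternal nicotine 2 or without a filter. Alb and Cyp3a11, 2 of the 8 hepatocyte markers, fell as well, while 6 of the 8 did not pass. The part of these markers in the periportal values was not tested.

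**Figure D5:**
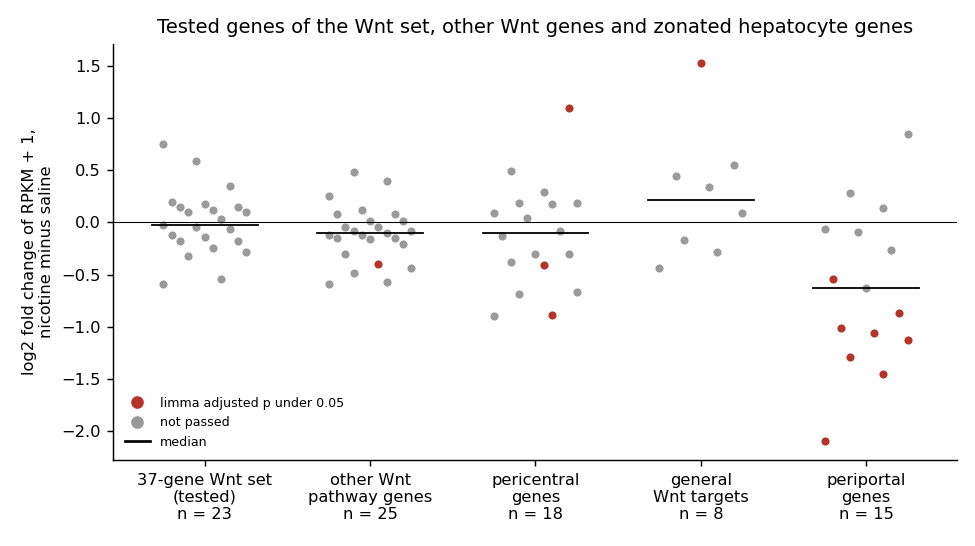
Log2 fold change of RPKM + 1 (vertical axis, paternal nicotine minus paternal saline) of each tested gene of the 37-gene Wnt set and of 4 comparison groups, with red points for a limma adjusted p under 0.05 and bars for the median. The 23 tested members have 0 red points and a median of -0.02, and the 15 periportal genes have 8 red points, all below 0.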

How the data were processed

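Liver RNA of 3 paternal saline and 3 paternal nicotine offspring was sequenced after Trizol extraction; a TruSeq DNA kit is named for the libraries, per the labels. For each library the authors deposited RPKM values of 54532 Ensembl genes. The submitters' processing notes list CASAVA, TopHat and mm8 with no version. The counting tool, annotation, strand setting and treatment of multiple matches were taken as unknown, being not given in the sources used here. The deposited length column (bases) fitted its own gene in only 96 rows (0.176%) and was left out.

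Values under 1e-06 RPKM stand for no read and were set to 0. Symbols and coordinates come from GENCODE M21 (GRCm38), which matched 99.93% of the identifiers. The values without a read matched the summed exon length of all transcripts for 98.9% of genes. From this came the total reads per library and the reads behind each value. All 25531 genes with a read came out whole within 0.01, after the length was searched for 1200 of them, Fzd8, Apc, Dvl2 and Tcf7l2 included. For these 1200 the length was chosen to give whole reads, so wholeness is no check of their reads. Read numbers of 4 (5005 values) were more frequent than of 3 (2029 values), so reads may not all be separate fragments.

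The test was limma 3.58.1 in R 4.3.3 (lmFit, then eBayes with trend and robust), on log2(RPKM + 1) values of the 8773 genes that averaged 1 RPKM or more, with group as the only term, Benjamini-Hochberg adjustment and a threshold of 0.05; members under 1 RPKM were read from the fit without a filter. The fit was tested on simulated data. Deviations from the group mean correlated at 0.0071, 0.0564 and 0.0494 for same-numbered animals of the 2 groups. For differently numbered animals the correlations ran from -0.108 to 0.0488. With 3 animals per group these values cannot settle whether the numbers pair animals, and the labels state no pairing. The members, the gene lists and the tests were chosen with earlier results of these data known. The text names all 37 members, the genes of the other lists past the threshold, and Glul, Oat, Cyp2e1 and Cyp1a2. It also names some of the up to 4 genes of lowest p per list. Sfrp5, Wnt2b, Btrc, Plaur, Fosl1, Myc, Mmp7, Bmp4, Ccnd2 and the genes that share exons were chosen after their values were seen. Alternatives were 2 rescalings, limma without trend and robust, other filters and pseudocounts, a replicate block, voom on the reads, other thresholds and leaving out each library. Shared exons of at least 50 bases were found with bedtools 2.31.1. Alignments with blastn 2.17.0 at 95% identity over 200 bases found no near-identical copy of a member beyond these opposite-strand overlaps. Figures were drawn with matplotlib 3.10.9.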

Additional observations from a re-analysis of the deposited data

How the results depend on the processing

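Of the alternatives that could change a sign, 13 gave a value for all 37 members, 2 for 23 and 1 for 5. In those that gave it a value, 25 of the 37 members kept the sign of the fold change throughout, and 12 reversed in at least 1. No member was called in the main fit. Dkk3 was called with the replicate block (1 higher, limma adjusted p = 0.0472), Fzd4 without paternal saline 2 and Tbx3 without paternal nicotine 1, so counts ranged from 0 to 1 in each direction on leaving out a library. The log2 fold change of Ctnnb1 was 0.0082 after median-ratio scaling, and those of Dvl2 and Sfrp1 were -0.0016 and -0.0152 after quantile normalization. On leaving out a library it ranged from -0.12 to 0.0389 for Ctnnb1, -0.0641 to 0.12 for Lrp6, -0.17 to 0.43 for Ccnd1, -0.10 to 0.0029 for Lrp5, -0.0414 to 0.17 for Fzd5, -0.0761 to 0.35 for Wnt4, -0.12 to 0.0080 for Wnt9b, -0.0885 to 0.15 for Sfrp1, -0.0296 to 0.11 for Porcn, -0.0203 to 0.0839 for Dvl2, -0.0017 to 0.0556 for Tcf7l2 and -0.0544 to 0.23 for Wnt5b. The replicate block ended the calls of Aes, Aldh1a1 and Rgn and left 1 pericentral gene lower, Nr1i3. Causes were not tested.

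Over all genes, 341 higher and 473 lower became 184 and 183 without a filter, where more genes were tested, 185 and 198 with the replicate block, 587 and 824 at a threshold of 0.1, 74 and 82 at 0.01, and 90 to 299 and 92 to 400 on leaving out a library. In the 9 Wnt pathway and target lists, 2 higher and 11 lower became 5 lower without a filter, 1 higher at 5 RPKM, 5 higher and 7 lower at 0.1 RPKM, 0 and 3 at a threshold of 0.01, and 0 to 2 and 4 to 11 on leaving out a library. In the 11 marker lists, 3 higher and 2 lower became 1 lower without a filter, 4 lower at 5 RPKM, 1 lower with the replicate block, 8 and 4 at a threshold of 0.1, 1 and 0 at 0.01, and 1 to 2 and 0 to 1 on leaving out a library. With 3 animals per group, members with wide intervals may differ by amounts that these libraries cannot resolve, and Wnt11 and Lef1 were limited by their reads.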
